A study of Mus musculus with 10 samples.

Results

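Prolonged culture in 2i was set against culture in serum in mouse embryonic stem (ES) cells, over all genes measured by RNA-seq. The comparison took 4 of the 10 libraries of the series: the 2 whose label gives more than 13 passages in 2i/LIF, called long 2i here, and the 2 labelled Serum/LIF, called serum. All of these ES cells came from the inner cell mass of the blastocyst, carried a reporter of Wnt/β-catenin signalling, received leukaemia inhibitory factor (LIF), grew on gelatin without a stated feeder layer and were split about every 48 h. The 2i/LIF medium held a GSK3 inhibitor at 3 µM and the ERK inhibitor PD at 1 µM. The labels give no strain, sex, line or number of clones, and do not say whether the long 2i cells were grown from the serum culture sampled here. For some genes the level after 5 to 6 passages in the same 2i medium (first 2i, 2 libraries) is given too. These few genes do not show how often long 2i and first 2i differed. The other 4 libraries enter the shared fit and the chromosome comparison only: 2 of cells moved after long 2i to serum for 6 passages (serum return), and 2 of such cells moved on to 2i again (second 2i).

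In ES cells, GSK3 marks β-catenin for breakdown, and its inhibition lets β-catenin accumulate, switch on Wnt target genes and lift repression by the DNA-binding factor Tcf7l1. The kinase ERK, driven mainly by the cells' own Fgf4, prepares them to leave pluripotency, and its targets include several of its own inhibitors. LIF acts through Stat3 to hold the pluripotent state in both media. Cells in 2i are known for uniform expression of naive pluripotency factors and low DNA methylation, whereas serum cultures are mixed.

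Gene counts totalled 16809070 and 18780882 in the long 2i libraries, against 21162844 and 19422934 in the serum libraries, and gene levels below are CPM, that is counts per library scaled to 1000000 over the genes tested, with TMM correction. Between 16060 and 16492 genes had a count in each of these 4 libraries. The labels do not state that the 2 replicates of a medium were grown apart, so the p-values below speak only to the variation among these libraries, and that variation could be technical. Of 24015 genes in the files, 14220 passed the filter on low counts and were tested with edgeR's quasi-likelihood test. Errors of log2 fold changes are approximate standard errors (SE), derived as the absolute log2 fold change divided by the square root of the test's F statistic. A gene is said to rise or fall, in long 2i relative to serum, where its Benjamini-Hochberg adjusted p was under 0.05 over all genes tested. A gene given with its values alone passed this test in the direction they show, unless it is said not to have passed or was removed by the filter.

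The test called 9804 genes, or 68.9% of those tested: 4986 (35.1%) were higher and 4818 (33.9%) lower in long 2i. At least 2-fold differences were called for 3699 genes (26.0%), of which 1518 (10.7%) were higher and 2181 (15.3%) lower. The long 2i and serum levels did not overlap in 11793 genes (82.9%). The median log2 fold change over all genes tested was 0.014. By at least 4-fold 686 genes were higher and 1198 lower, and by at least 8-fold 388 were higher and 639 lower. By at least 64-fold the counts were 97 higher and 87 lower. Since the test called most genes, the gene groups below are read against these shares.

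Both groups had the markers of ES cells. All 9 markers checked (Pou5f1, Sox2, Nanog, Zfp42, Esrrb, Tdgf1, Sall4, Utf1 and Dppa5a) were detected in every library, and their levels summed to 4787 and 4844 CPM in long 2i, against 6815 and 6856 CPM in serum. Markers of other cell types were low. The 10 fibroblast or feeder markers summed to 8.81 and 8.60 CPM in long 2i, against 26.3 and 22.7 CPM in serum, with the collagen Col3a1 at or under 0.239 CPM in every library. The 8 endothelial markers summed to 18.5 and 17.1 CPM in long 2i, against 74.9 and 85.8 CPM in serum. Robo4 alone gave 51.6 and 58.6 CPM of that serum sum, and of the 6 tested 2 rose and 4 fell. The 7 blood markers summed to 7.62 and 8.71 CPM in long 2i, against 5.69 and 5.42 CPM in serum, and both globin genes among them had no counts. Primitive endoderm markers summed to 15.96 and 19.4 CPM in long 2i, against 38.3 and 41.6 CPM in serum. Sox7 alone gave 33.96 and 36.7 CPM of that serum sum. Of the 6 primitive endoderm markers tested 2 rose (Gata4 and Dab2), 1 fell and 3 did not pass. Trophectoderm markers summed to 3.61 and 3.54 against 0.478 and 0.469 CPM, and neural markers to 44.9 and 50.4 against 70.8 and 70.8 CPM. The part of these marker differences in the results below was not tested. In bulk RNA, fewer cells of a type and less RNA per cell cannot be told apart.

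Genes of chromosomes 1, 6, 16 and X were shifted together in long 2i. Of the 14220 genes tested, 13399 could be placed on a chromosome by their symbol in the RefSeq gene table (GRCm38). On chromosome 1 the median log2 fold change was -0.44 over 747 genes, with 468 genes (62.7%) lower and 121 higher. The medians were 0.34 on chromosome 6 (623 genes, 334 higher and 133 lower), 0.36 on chromosome 16 (410 genes, 246 higher and 72 lower) and 0.35 on the X chromosome (476 genes, 257 higher and 92 lower). These shifts stood apart from the other 16 autosomes, whose medians lay between -0.078 and 0.13.

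The shift was seen in each long 2i library and along the whole of each of these chromosomes. Over the 7764 placed genes with a mean above 16 CPM, the chromosome 1 median stood at -0.40 and -0.46 in the long 2i libraries, and between -0.012 and 0.039 in the other 8 libraries of the series, all relative to the serum mean. For chromosome 6 it was 0.42 and 0.39 in long 2i and between -0.0057 and 0.073 in the other 8, and for chromosome 16 it was 0.37 and 0.35 in long 2i and between -0.012 and 0.029 in the other 8. The X chromosome differed from these 3, because its median was also raised in first 2i, at 0.23 and 0.20, beside 0.35 and 0.27 in long 2i. In second 2i the X median was 0.15 and 0.10. When the genes of a chromosome were cut into 8 runs of neighbours, all 8 run medians were negative on chromosome 1 (-0.64 to -0.20), and all 8 were positive on chromosome 6 (0.20 to 0.55), chromosome 16 (0.23 to 0.51) and the X (0.089 to 0.64). A shared sign was not particular to these chromosomes, as all 8 were positive on chromosome 8 too (0.0023 to 0.34). The serum return libraries, labelled as cells returned to serum after long 2i, did not share the shift on chromosomes 1, 6 and 16. DNA copy number was not measured. The chromosomes were singled out after their values were seen, so no test is given, and 2 against 2 libraries could not reach a two-sided exact permutation p under 0.333.

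**Figure D1:**
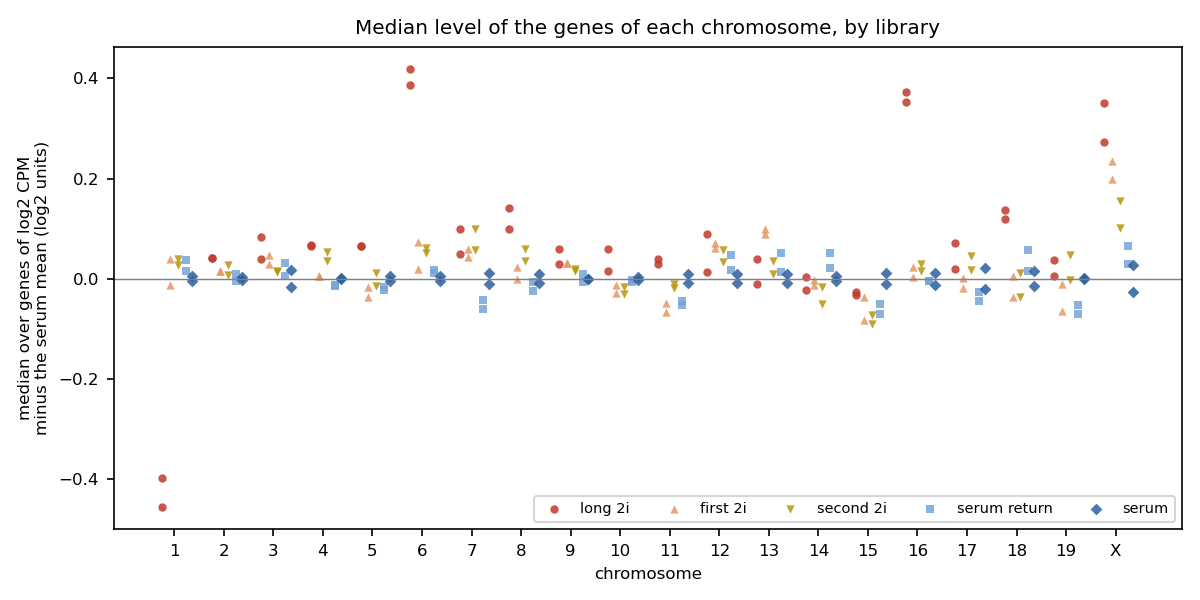
Median, over the genes of each chromosome with a mean above 16 CPM, of the log2 CPM of a library minus the serum mean (y axis, log2 units), for every library (points, 2 per group, offset sideways by group). On chromosomes 1, 6 and 16 only the long 2i points stand away from 0, at -0.40 and -0.46, 0.42 and 0.39, and 0.37 and 0.35.

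Expressed as folds, the median differences on these 4 chromosomes were 1.27-fold to 1.36-fold. With the median of each chromosome subtracted, an alternative chosen after seeing the data, the calls on chromosome 1 went to 255 higher and 263 lower, and 161 of its 589 calls were lost. In all, 9629 genes were then called, 4803 higher and 4826 lower, and 9067 of the 9804 first calls were among them. Genes on these chromosomes are named as such below where it matters.

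Some of the largest differences were in genes with almost no reads in one medium. Cyp1a1, a cytochrome P450 that oxidizes aromatic compounds, had 51.5 and 48.4 CPM in long 2i, against 0 and 0 CPM in serum, where no read was counted, and was at least 666-fold higher against a floor of 3 counts over both serum libraries. Nefm, the medium neurofilament subunit, had 131 and 123 CPM in long 2i, against 0.335 and 0.156 CPM in serum (log2 fold change 8.96 ± 0.17, adjusted p = 1.12e-19). The Wnt target Sp5 had 20.5 and 29.7 CPM in long 2i, against 0.0957 and 0.104 CPM in serum (log2 fold change 7.89 ± 0.50, adjusted p = 2.70e-07). In all of these genes both long 2i libraries were far above both serum libraries.

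Of the 10 largest increases among genes with a full name (clone and model names, ribosomal protein and histone genes left out), the other 7 were partly on the sex chromosomes. Xlr5a and Xlr5b belong to a multicopy X-linked family whose reads cannot be assigned with certainty. Xlr5a had 6.92 and 6.23 CPM in long 2i, against 0 and 0 CPM in serum, and missed the threshold with the DESeq2 test (adjusted p = 0.0509). Xlr5b had 21.99 and 6.60 CPM in long 2i, against 0 and 0 CPM in serum, with long 2i libraries far apart, and lost its call in an edgeR fit of the 4 libraries alone (adjusted p = 0.21). The nuclear export factor gene Nxf3, the protocadherin gene Pcdh19 and the actin-binding protein gene Pof1b are X-linked too. Nxf3 had 33.8 and 29.7 CPM in long 2i, against 0.0957 and 0.0521 CPM in serum, which is 3 counts in all. Pcdh19 had 8.45 and 6.70 CPM in long 2i, against 0.0478 and 0 CPM in serum. Pof1b had 6.38 and 7.02 CPM in long 2i, against 0 and 0.0521 CPM in serum. With 5.66 and 6.57 CPM in first 2i, Pof1b did not pass for long 2i minus first 2i (adjusted p = 0.555). All 3 were thus close to absent in serum. The Y-linked histone demethylase gene Kdm5d had 13.4 and 13.4 CPM in long 2i, against 0.0478 and 0 CPM in serum. The chaperone gene Dnajc5g had 11.9 and 12.6 CPM in long 2i, against 0.0478 and 0 CPM in serum. These serum values are 1 read each, except for Nxf3 and the Xlr5 genes, so no fold is given.

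The largest decreases by the same choice of genes included those of endothelium and of secreted signals. Miat, a long noncoding RNA, had 0 and 0 CPM in long 2i, against 11.9 and 13.5 CPM in serum, and was at least 151-fold lower. Cdh22, a cadherin, had 0 and 0 CPM in long 2i, against 6.07 and 7.35 CPM in serum, and was at least 79.9-fold lower. The GDNF co-receptor gene Gfra1 had 0 and 0.0528 CPM in long 2i, against 8.18 and 11.5 CPM in serum. The olfactomedin gene Olfm2 had 0.0591 and 0 CPM in long 2i, against 8.70 and 9.01 CPM in serum. Gfra1 and Olfm2 each had 1 read over both long 2i libraries together. The endothelial nitric oxide synthase gene Nos3 (log2 fold change -7.99), the collagen cross-linking enzyme gene Loxl2 (-7.81), the Nodal antagonist gene Lefty1 (-7.73), the myelin regulatory factor gene Myrf (-7.71) and the guidance receptor gene Robo4 (-7.46) followed. These 5 genes had under 1 CPM in each long 2i library, from 0.177 and 0.158 CPM in long 2i, against 40.3 and 47.8 CPM in serum for Nos3 to 0.887 and 0.581 CPM in long 2i, against 147 and 164 CPM in serum for Lefty1.

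**Figure D2:**
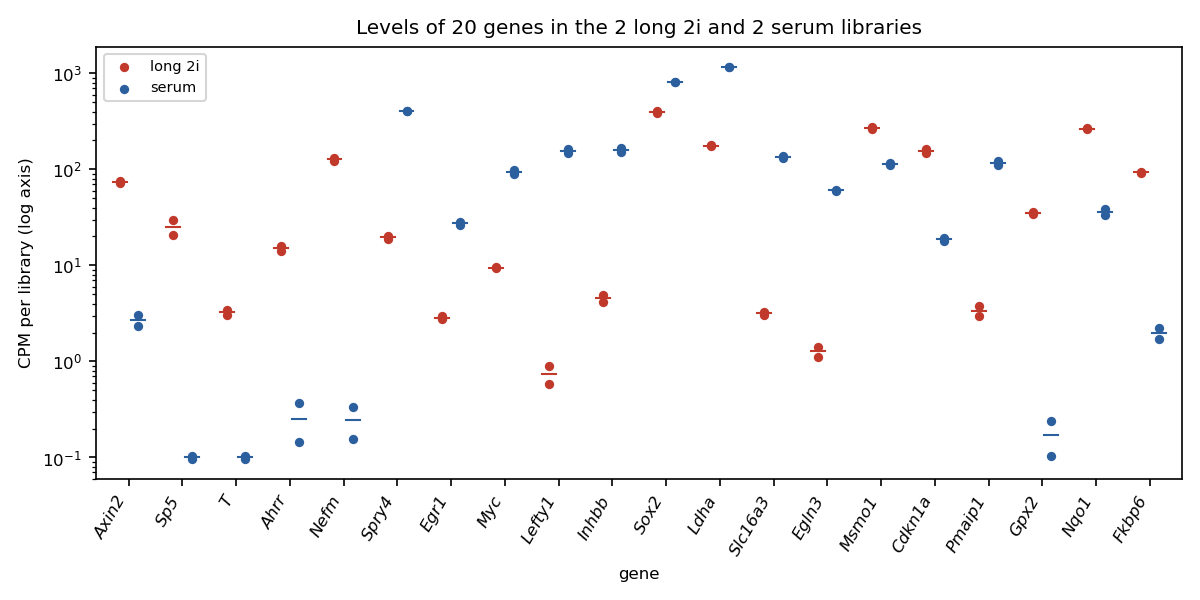
Levels in CPM (log axis) of 20 genes named in the text, with 1 point per library and a short line at the mean, long 2i on the left and serum on the right of each pair. The groups do not overlap for any gene shown, as for 82.9% of all genes tested. Axin2, for example, lies at 73.0 and 75.2 CPM in long 2i, against 2.34 and 3.02 CPM in serum.

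Wnt signalling was read from its target genes first, then from its components. Axin2, a scaffold of the destruction complex and the usual readout of β-catenin activity, had 73.00 and 75.2 CPM in long 2i, against 2.34 and 3.02 CPM in serum (log2 fold change 4.79 ± 0.10, adjusted p = 4.09e-19). Of 12 tested feedback inhibitors and turnover factors 5 rose, 4 fell and 3 did not pass, with a median log2 fold change of 0.35. Notum, which inactivates Wnt proteins, had 42.7 and 45.8 CPM in long 2i, against 32.7 and 33.97 CPM in serum (log2 fold change 0.41 ± 0.075, adjusted p = 6.69e-05), a rise of only 1.33-fold. Nkd2, an inhibitor of Dvl, fell to 0.414 and 0.317 CPM in long 2i, against 3.68 and 4.22 CPM in serum. Dkk1, a secreted inhibitor of Wnt co-receptors, had 0.827 and 0.845 CPM in long 2i, against 0.0957 and 0 CPM in serum. Sfrp5, a secreted Wnt antagonist, fell too, with 0 and 0 CPM in long 2i, against 0.478 and 0.365 CPM in serum. The group thus held large changes in both directions, with Axin2 the largest rise.

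Among transcription factor genes and other targets of Wnt signals, those that rose did so by at least 2-fold. Of 14 tested, 7 rose, 6 fell and 1 did not pass, with 7 higher and 3 lower by at least 2-fold, and a median log2 fold change of 0.87. T (Brachyury), the mesoderm factor, had 3.07 and 3.43 CPM in long 2i, against 0.0957 and 0.104 CPM in serum (log2 fold change 4.95 ± 0.45, adjusted p = 3.75e-09). Tcf7, the Tcf/Lef factor most readily induced by Wnt signals, had 66.8 and 73.5 CPM in long 2i, against 30.2 and 31.99 CPM in serum. The TNF receptor family gene Tnfrsf19 had 23.6 and 25.2 CPM in long 2i, against 2.77 and 2.61 CPM in serum. Cdx1, a posterior homeobox gene, had 10.1 and 13.8 CPM in long 2i, against 1.77 and 2.24 CPM in serum (log2 fold change 2.59 ± 0.21, adjusted p = 7.64e-09). Lef1, a partner of β-catenin, did not pass (1.48 and 2.22 CPM in long 2i, against 1.10 and 1.41 CPM in serum, adjusted p = 0.145). Those that fell were Myc, the receptor gene Fzd7, the ligand gene Bmp4, the factor gene Ascl2 (not called with DESeq2, adjusted p = 0.0857), Ccnd1 and the naive factor Tbx3, with log2 fold changes of -3.31 for Myc and -2.37 for Fzd7, which is on chromosome 1.

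The promoters of Sp5 and T are shown because both genes were near 0 in serum and their windows hold a match to the Tcf/Lef site. The windows run from 250 bases before to 50 bases after the RefSeq start (GRCm38.p6; Sp5 at chr2:70474673-70474972, plus strand, T at chr17:8434173-8434472, plus strand). Capitals mark CTTTGAT in Sp5 and CTTTGAA in T, read on both strands. Of all 27025 genes with a RefSeq promoter of this length, 4.29% had CTTTGAT and 5.93% had CTTTGAA in a promoter. Each was found in 2 of the 10 genes of this list that have a promoter in the table.
Sp5: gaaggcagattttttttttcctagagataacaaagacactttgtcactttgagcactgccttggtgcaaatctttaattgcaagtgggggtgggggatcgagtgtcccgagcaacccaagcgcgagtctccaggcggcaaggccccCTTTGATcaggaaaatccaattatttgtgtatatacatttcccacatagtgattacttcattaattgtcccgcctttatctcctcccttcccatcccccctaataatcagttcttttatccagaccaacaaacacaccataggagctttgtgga
T: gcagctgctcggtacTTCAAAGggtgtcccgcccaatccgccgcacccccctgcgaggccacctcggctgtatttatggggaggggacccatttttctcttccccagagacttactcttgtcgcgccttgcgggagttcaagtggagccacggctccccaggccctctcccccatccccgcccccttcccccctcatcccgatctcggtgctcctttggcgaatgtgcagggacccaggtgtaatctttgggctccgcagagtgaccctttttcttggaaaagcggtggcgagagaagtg

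Wnt pathway components changed in both directions. Of 24 genes of β-catenin, the destruction complex and Tcf partners 7 rose, 12 fell and 5 did not pass, with a median of -0.15. Ctnnb1, which encodes β-catenin itself, had 1067 and 1059 CPM in long 2i, against 1459 and 1427 CPM in serum (log2 fold change -0.44 ± 0.043, adjusted p = 1.33e-08). Gsk3b, which encodes the kinase that long 2i inhibits, had 162 and 164 CPM in long 2i, against 69.8 and 77.5 CPM in serum (log2 fold change 1.15 ± 0.059, adjusted p = 3.92e-13). Dvl3, a relay of Wnt receptors, had 64.8 and 68.99 CPM in long 2i, against 27.7 and 32.5 CPM in serum. Both Gsk3b and Dvl3 lie on chromosome 16 and were no longer 2-fold higher once its median was subtracted. Csnk1e, a casein kinase that acts on Dvl, had 65.7 and 75.1 CPM in long 2i, against 184 and 195 CPM in serum (log2 fold change -1.43 ± 0.064, adjusted p = 4.78e-14). Tcf7l1 had 107 and 122 CPM in long 2i, against 94.1 and 99.6 CPM in serum, a small rise that was no longer called once the median of its chromosome, 6, was subtracted.

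Ligands and receptors of the pathway were split as well, with 9 rising, 7 falling and 6 not passing of 22 tested. Wls, which carries Wnt proteins to the cell surface, had 64.5 and 61.7 CPM in long 2i, against 2.25 and 3.70 CPM in serum (log2 fold change 4.42 ± 0.13, adjusted p = 3.92e-17). Wnt5b, a ligand known for non-canonical signalling, had 6.62 and 6.91 CPM in long 2i, against 0.383 and 0.417 CPM in serum. Wnt7b, another ligand gene, had 2.54 and 2.59 CPM in long 2i, against 0.765 and 0.521 CPM in serum. Porcn, the enzyme that adds the lipid Wnt proteins need for secretion, had 5.67 and 6.60 CPM in long 2i, against 24.1 and 23.97 CPM in serum (log2 fold change -1.96 ± 0.11, adjusted p = 3.19e-12). Frizzled receptors went both ways: Fzd1, Fzd2 and Fzd8 rose (log2 fold changes 2.09, 1.79 and 2.05), and Fzd3, Fzd7 and Fzd9 fell (-1.95, -2.37 and -1.81).

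Feedback inhibitors of ERK were mostly lower in long 2i. Of 12 tested, 3 rose, 9 fell and 0 did not pass, and 6 of those that fell did so by at least 2-fold, where 15.3% of all genes did. Their median log2 fold change was -1.19. Spry4, a Sprouty inhibitor of the pathway, had 20.3 and 19.06 CPM in long 2i, against 406 and 408 CPM in serum (log2 fold change -4.37 ± 0.065, adjusted p = 3.45e-21). Dusp6, the phosphatase that acts on ERK, had 38.4 and 38.3 CPM in long 2i, against 192 and 190.4 CPM in serum (log2 fold change -2.32 ± 0.069, adjusted p = 5.65e-17). Spred1, an inhibitor at the level of Ras, had 85.8 and 83.4 CPM in long 2i, against 230.5 and 226 CPM in serum (log2 fold change -1.43 ± 0.052, adjusted p = 1.35e-15). Dusp5 and Dusp4, phosphatases of nuclear ERK, fell by 3.52 and 1.84 on the log2 scale. Dusp7, Spred3 and Errfi1, by contrast, rose by less than 2-fold (log2 fold changes 0.58, 0.56 and 0.22), and the calls of Spred3 and Errfi1 were lost with DESeq2 (adjusted p = 0.0531 and 0.17).

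Genes that ERK induces were not lowered alike. Of 18 tested, 3 rose, 10 fell and 5 did not pass, with a median of -0.42. The immediate-early factor Egr1 had 2.78 and 2.96 CPM in long 2i, against 26.6 and 28.5 CPM in serum (log2 fold change -3.26 ± 0.11, adjusted p = 7.43e-16). Myc, which drives growth and metabolism, had 9.34 and 9.55 CPM in long 2i, against 90.2 and 97.4 CPM in serum (log2 fold change -3.31 ± 0.084, adjusted p = 5.35e-18). Etv4 and Etv5, paired ETS factors downstream of FGF, differed: Etv4 had 135 and 141 CPM in long 2i, against 277 and 288 CPM in serum (log2 fold change -1.03 ± 0.053, adjusted p = 4.43e-13), whereas Etv5 had 449 and 455 CPM in long 2i, against 357 and 355 CPM in serum (log2 fold change 0.34 ± 0.045, adjusted p = 9.11e-07). After the shorter culture Etv4 had only 4.49 and 4.72 CPM in first 2i (long 2i minus first 2i, log2 fold change 4.91 ± 0.08, adjusted p = 2.20e-20), far below both. The rise of Etv5 was as small as the median of its chromosome, 16, and was no longer called once that median was subtracted. Jun, another immediate-early factor, rose, with 10.4 and 10.8 CPM in long 2i, against 3.59 and 3.44 CPM in serum (log2 fold change 1.59 ± 0.15, adjusted p = 1.24e-08), while the ephrin receptor Epha2 fell to 78.3 and 90.7 CPM in long 2i, against 258 and 296 CPM in serum. Ccnd1, the D-type cyclin, fell by 0.87 on the log2 scale.

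FGF ligands and receptors did not move together, with 6 rising, 6 falling and 3 not passing of 15 tested. Fgf4, the main FGF of ES cells, did not pass (165 and 169 CPM in long 2i, against 163 and 161 CPM in serum, adjusted p = 0.476). Fgfr1, its main receptor, had 158 and 162 CPM in long 2i, against 115 and 128 CPM in serum. Fgfr2 rose, with 6.38 and 7.44 CPM in long 2i, against 0.574 and 1.20 CPM in serum (log2 fold change 2.98 ± 0.27, adjusted p = 3.55e-09), and Fgfr3 fell, with 2.48 and 2.74 CPM in long 2i, against 52.2 and 60.3 CPM in serum (log2 fold change -4.42 ± 0.13, adjusted p = 7.81e-17). Fgfbp1, which releases FGFs from the matrix, had 31.6 and 28.8 CPM in long 2i, against 2.97 and 3.39 CPM in serum (log2 fold change 3.25 ± 0.14, adjusted p = 2.77e-14).

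Pluripotency factors kept high levels and were more often lower than higher. Of 26 tested, 4 rose, 16 fell and 6 did not pass, where 35.1% of all genes rose and 33.9% fell. Their median log2 fold change was -0.53. Pou5f1, which encodes Oct4, had 890.3 and 948 CPM in long 2i, against 1199.9 and 1227 CPM in serum (log2 fold change -0.40 ± 0.048, adjusted p = 2.59e-07). Its partner Sox2 had 382 and 404 CPM in long 2i, against 816 and 814 CPM in serum (log2 fold change -1.05 ± 0.047, adjusted p = 3.51e-14). Esrrb, an orphan receptor downstream of GSK3 inhibition, did not pass (952 and 1002 CPM in long 2i, against 984 and 1048 CPM in serum, adjusted p = 0.324). Nanog had 907 and 866 CPM in long 2i, against 729.6 and 709.9 CPM in serum (log2 fold change 0.30 ± 0.046, adjusted p = 7.08e-06), but this rise was smaller than the median of its chromosome, 6, and was no longer a rise once that median was subtracted.

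The naive factors divided too. Klf4 had 274 and 292 CPM in long 2i, against 416 and 433 CPM in serum (log2 fold change -0.58 ± 0.048, adjusted p = 1.02e-09), whereas Klf2 did not pass, with 80.2 and 113 CPM in long 2i, against 121 and 160.4 CPM in serum and a wide spread between libraries (adjusted p = 0.155). The call of Klf2 depended on the settings, as without the filter on low counts it was called lower (log2 fold change -0.54, adjusted p = 2.08e-18). It was also called lower with the title series as a replicate block in edgeR (log2 fold change -0.55, adjusted p = 5.62e-24). Both long 2i levels were below both serum levels, and its own counts were the same in all of these fits. Because its call changed with the settings, Klf2 is not read as a fall. Tfcp2l1, a naive factor regulated by both arms of 2i, had 1441 and 1422 CPM in long 2i, against 771 and 824 CPM in serum (log2 fold change 0.84 ± 0.047, adjusted p = 1.40e-12), although the median of its chromosome, 1, was lower. Dppa3, which protects maternal methylation in the early embryo, had 18.9 and 18.2 CPM in long 2i, against 1.15 and 0.677 CPM in serum (log2 fold change 4.32 ± 0.23, adjusted p = 6.86e-13). Gbx2, a homeobox factor downstream of LIF, had 14.9 and 17.6 CPM in long 2i, against 117 and 127 CPM in serum (log2 fold change -2.90 ± 0.084, adjusted p = 3.25e-17). Utf1, a chromatin factor of ES cells, had 82.6 and 103 CPM in long 2i, against 288 and 335 CPM in serum. Fbxo15, a target of Oct4, rose 2.63-fold.

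In the LIF pathway 5 rose, 7 fell and 6 did not pass of 18 tested, and most differences were small. The receptor gene Lifr had 70.8 and 68.7 CPM in long 2i, against 113 and 109.8 CPM in serum (log2 fold change -0.68 ± 0.076, adjusted p = 1.43e-07). The shared receptor subunit gene Il6st had 113 and 111 CPM in long 2i, against 128 and 139 CPM in serum. Stat3, the transcription factor that carries the signal, had 200.5 and 203 CPM in long 2i, against 164 and 168 CPM in serum. Lif itself was an exception, at 14.5 and 13.99 CPM in long 2i, against 2.73 and 2.14 CPM in serum (log2 fold change 2.54 ± 0.16, adjusted p = 1.46e-11). The kinase Pim3, a Stat3 target, had 113 and 134 CPM in long 2i, against 322 and 376 CPM in serum (log2 fold change -1.50 ± 0.13, adjusted p = 2.10e-05).

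Genes of the formative and primed epiblast, the states that follow naive pluripotency, went both ways by large steps. Of 20 tested, 7 rose, 12 fell and 1 did not pass, with 4 higher and 10 lower by at least 2-fold and a median of -0.94. Pou3f1, which encodes the factor Oct6, had 0.118 and 0.264 CPM in long 2i, against 3.44 and 5.89 CPM in serum (log2 fold change -4.53 ± 0.42, adjusted p = 6.52e-09). Tcf15, an early mark of epiblast priming, had 2.25 and 3.48 CPM in long 2i, against 92.3 and 142 CPM in serum (log2 fold change -5.33 ± 0.44, adjusted p = 0.00012). Lin28b, a repressor of let-7 microRNAs, fell to 7.62 and 7.60 CPM in long 2i, against 36.1 and 33.5 CPM in serum. Zic2 and Zic5, neighbouring zinc finger genes of the epiblast and neural plate, rose, Zic2 with 19.9 and 22.6 CPM in long 2i, against 1.29 and 1.62 CPM in serum and Zic5 with 3.07 and 4.28 CPM in long 2i, against 0.813 and 1.04 CPM in serum. Otx2, the factor that leads cells out of naive pluripotency, differed little (23.3 and 22.6 CPM in long 2i, against 20.04 and 20.01 CPM in serum, adjusted p = 0.0475), and its call was lost with DESeq2 (adjusted p = 0.201).

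Nodal signalling genes changed in both directions. Of 18 tested genes of the pathway 8 rose, 9 fell and 1 did not pass. Lefty1 and Lefty2 encode secreted antagonists that Nodal itself induces. Lefty1 had 0.887 and 0.581 CPM in long 2i, against 147 and 164 CPM in serum. After the shorter culture Lefty1 still had 138 and 139.5 CPM in first 2i (long 2i minus first 2i, log2 fold change -7.57 ± 0.15, adjusted p = 1.59e-18). Lefty2 had 10.99 and 10.03 CPM in long 2i, against 402 and 394 CPM in serum. Inhbb, an activin subunit, had 4.14 and 4.91 CPM in long 2i, against 153 and 168 CPM in serum (log2 fold change -5.14 ± 0.11, adjusted p = 3.70e-19). All of these genes lie on chromosome 1, but their falls of 7.73, 5.24 and 5.14 on the log2 scale far exceeded its median. Nodal itself had 86.9 and 92.3 CPM in long 2i, against 44.7 and 45.96 CPM in serum (log2 fold change 0.98 ± 0.064, adjusted p = 1.92e-11). The co-receptor gene Tdgf1 had 315 and 294 CPM in long 2i, against 959 and 883 CPM in serum (log2 fold change -1.60 ± 0.056, adjusted p = 7.66e-16). Skil, a repressor of Smad factors, had 18.7 and 16.2 CPM in long 2i, against 127 and 123 CPM in serum. Fst, which binds activin, had 8.22 and 6.81 CPM in long 2i, against 0.574 and 0.365 CPM in serum (log2 fold change 3.97 ± 0.25, adjusted p = 1.65e-11). The ligand thus rose, while its co-receptor and both antagonists fell.

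Id genes, the targets of BMP signals from serum, were unequal. Id1 had 19.7 and 22.6 CPM in long 2i, against 183 and 189 CPM in serum. Id2 had 1.95 and 2.74 CPM in long 2i, against 27.9 and 25.8 CPM in serum. Id3 did not pass (48.5 and 52.3 CPM in long 2i, against 41.2 and 47.9 CPM in serum, adjusted p = 0.147), and Id4 had 6.15 and 5.07 CPM in long 2i, against 10.7 and 11.9 CPM in serum (log2 fold change -1.01 ± 0.13, adjusted p = 8.60e-07). The ligand gene Bmp4 had 37.9 and 41.7 CPM in long 2i, against 199.8 and 211 CPM in serum (log2 fold change -2.37 ± 0.061, adjusted p = 6.65e-18). Over the list of 17 tested, 3 rose, 7 fell and 7 did not pass.

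Transcription factors of the primitive streak and posterior body were low, and those that passed the filter were more often higher than lower in long 2i. Of 21 genes, 13 passed the filter on low counts, of which 7 rose, 2 fell and 4 did not pass, where 35.1% of all genes rose. By at least 2-fold, 7 were higher and 2 lower. Such a gene can pass the filter through the medium where it is high, so these counts are given as a description only. Without the filter 7 rose and 3 fell of 21, with a median log2 fold change of 0.37. Nkx1-2, a gene of caudal progenitors, had 2.13 and 3.01 CPM in long 2i, against 0 and 0 CPM in serum, and was at least 34.7-fold higher. It had 12.8 and 14.03 CPM in first 2i (long 2i minus first 2i, log2 fold change -2.37 ± 0.17, adjusted p = 1.09e-09), more than in long 2i or serum. Gsc, of the organizer, had 3.84 and 5.96 CPM in long 2i, against 0 and 0.104 CPM in serum. Mesp2 and Tbx6, of later paraxial mesoderm, fell, to 0.177 and 0.158 CPM in long 2i, against 1.77 and 2.76 CPM in serum, and to 0.296 and 0.264 CPM in long 2i, against 0.861 and 0.782 CPM in serum, although the call of Tbx6 was lost with DESeq2 (adjusted p = 0.0747).

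Hox genes, silent in ES cells under Polycomb repression, were detected mainly in long 2i. Of 39 Hox genes, 17 passed the filter on low counts, of which 14 rose, 0 fell and 3 did not pass. A Hox gene can pass the filter through the medium where it is high, so this count is given as a description only. The median over these genes was 5.49, or 3.57 with genes lacking counts in serum at their bound, and it shares this limit. Without the filter 16 rose and 0 fell of 37, with a median log2 fold change of 2.86. Hoxc13 had 22.7 and 20.4 CPM in long 2i, against 0.0957 and 0.104 CPM in serum (log2 fold change 7.67 ± 0.24, adjusted p = 1.45e-16). Hoxc4 had 10.9 and 10.1 CPM in long 2i, against 0.670 and 0.208 CPM in serum. Hoxb9 had 11.5 and 12.6 CPM in long 2i, against 1.29 and 0.729 CPM in serum (log2 fold change 3.55 ± 0.22, adjusted p = 9.65e-12). Hoxc12, Hoxc5, Hoxd8 and Hoxc10 had no counts in serum and between 1.27 and 3.96 CPM in each long 2i library. The genes named here thus came from the Hoxb, Hoxc and Hoxd clusters, on different chromosomes, and most were from Hoxc.

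Polycomb genes themselves changed unevenly, with 9 rising, 10 falling and 5 not passing of 24 tested. Ezh2, the histone methyltransferase of Polycomb complex 2, had 402 and 379 CPM in long 2i, against 269 and 259 CPM in serum (log2 fold change 0.57 ± 0.052, adjusted p = 4.54e-09), and lies on chromosome 6. Eed, another core subunit, had 237 and 229 CPM in long 2i, against 301 and 294 CPM in serum. Jarid2 and Phf19, which guide the complex to its sites, fell, Jarid2 to 261 and 262 CPM in long 2i, against 722 and 738 CPM in serum and Phf19 to 3.43 and 5.07 CPM in long 2i, against 32.3 and 32.05 CPM in serum. Subunits of complex 1 showed the largest rises. Bmi1 had 77.2 and 72.5 CPM in long 2i, against 4.26 and 3.96 CPM in serum (log2 fold change 4.18 ± 0.10, adjusted p = 2.61e-18). Cbx8, which binds methylated histone H3, had 5.02 and 4.96 CPM in long 2i, against 0.0478 and 0.104 CPM in serum.

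Among genes of DNA methylation, the 3 de novo factors differed. Dnmt3l, the cofactor without catalytic activity, had 82.99 and 84.2 CPM in long 2i, against 371 and 369 CPM in serum (log2 fold change -2.15 ± 0.057, adjusted p = 9.65e-18). Dnmt3a had 16.7 and 17.9 CPM in long 2i, against 49.7 and 51.9 CPM in serum (log2 fold change -1.55 ± 0.085, adjusted p = 1.19e-12). Dnmt3b, by contrast, had 174 and 184 CPM in long 2i, against 148 and 145 CPM in serum (log2 fold change 0.29 ± 0.056, adjusted p = 0.000112). The maintenance methyltransferase gene Dnmt1 had 484 and 513 CPM in long 2i, against 428 and 449.8 CPM in serum. Tet1 and Tet2, which oxidize methylcytosine, fell by 0.44 and 0.92 on the log2 scale. Over the list of 18 tested, 8 rose, 7 fell and 3 did not pass. For H3K9 methylation and retroelement repressors 7 rose, 7 fell and 6 did not pass of 20 tested, 0 by at least 2-fold. Setdb1, the H3K9 methyltransferase that represses retroviruses, had 339 and 337 CPM in long 2i, against 194 and 192 CPM in serum. Its partner Trim28 had 1704 and 1858 CPM in long 2i, against 2055 and 2222 CPM in serum. With chromosome medians subtracted, 3 rose and 7 fell in that list.

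Germline genes, many of which are held silent by promoter methylation, moved in both directions, with 14 rising, 12 falling and 6 not passing of 32 tested. By at least 2-fold, 8 were higher and 9 lower. Fkbp6, needed for meiosis and piRNA function, had 93.1 and 92.7 CPM in long 2i, against 1.72 and 2.24 CPM in serum (log2 fold change 5.55 ± 0.12, adjusted p = 3.31e-19). Dazl, an RNA-binding protein of germ cells, had 81.4 and 70.4 CPM in long 2i, against 7.46 and 6.67 CPM in serum (log2 fold change 3.42 ± 0.11, adjusted p = 4.06e-16). Mael, a piRNA factor, fell to 1.00 and 1.32 CPM in long 2i, against 13.5 and 11.98 CPM in serum, and Ddx4, the germ cell helicase, to 5.85 and 5.49 CPM in long 2i, against 15.7 and 12.3 CPM in serum. Stra8, which starts meiosis, fell to 0.118 and 0.528 CPM in long 2i, against 6.74 and 7.03 CPM in serum. Asz1, another piRNA factor, had 2.90 and 2.64 CPM in long 2i, against 0.0478 and 0 CPM in serum. Magea4, a testis antigen gene on the X chromosome, had 6.27 and 6.65 CPM in long 2i, against 0.0478 and 0 CPM in serum. These serum values are 1 read each, so no fold is given.

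Genes of the 2-cell-like state were mostly at low levels. Only 10 of 20 passed the filter, and of these 2 rose, 2 fell and 6 did not pass. Pramel6 and Pramel7, members of a multicopy family whose reads may be shared, both rose. Pramel6 had 21.3 and 21.01 CPM in long 2i, against 0.239 and 0.469 CPM in serum. Pramel7 had 4.67 and 4.17 CPM in long 2i, against 0.0478 and 0.417 CPM in serum.

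Imprinted genes moved in both directions. Of 23 paternally expressed genes 12 rose, 7 fell and 4 did not pass, and of 20 maternally expressed genes 7 rose, 9 fell and 4 did not pass. Plagl1, a zinc finger factor, had 303 and 282 CPM in long 2i, against 18.4 and 18.2 CPM in serum (log2 fold change 4.00 ± 0.077, adjusted p = 2.13e-19). Peg13, a noncoding RNA, had 2.07 and 3.91 CPM in long 2i, against 0.0478 and 0.104 CPM in serum. Mest, a hydrolase of the mesoderm, had 82.04 and 87.9 CPM in long 2i, against 40.9 and 46.7 CPM in serum. Peg3, another zinc finger gene, had 42.7 and 46.7 CPM in long 2i, against 22.5 and 22.9 CPM in serum. H19, an imprinted noncoding RNA, had 0.177 and 0 CPM in long 2i, against 5.17 and 4.22 CPM in serum, with 3 reads in all in long 2i. Phlda2 and Cdkn1c, growth inhibitors of the same imprinted region of chromosome 7, fell, to 0 and 0.528 CPM in long 2i, against 12.5 and 12.4 CPM in serum, and to 1.30 and 1.21 CPM in long 2i, against 7.41 and 7.19 CPM in serum. In the Dlk1-Dio3 locus, the noncoding RNA gene Meg3 had 311 and 320.3 CPM in long 2i, against 128 and 140.3 CPM in serum (log2 fold change 1.23 ± 0.058, adjusted p = 9.34e-14), and Rian and Mirg rose as well (log2 fold changes 0.63 and 0.83). Of the 7 genes tested there, 4 rose, 1 fell and 2 did not pass, the one to fall being Dlk1, a Notch-related ligand gene, at 0.236 and 0.475 CPM in long 2i, against 0.670 and 1.46 CPM in serum. The call of Dlk1 was lost with DESeq2 (adjusted p = 0.0961). Its log2 fold change was -1.14 without long 2i replicate 1 and -0.88 without serum replicate 2.

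Glycolysis and hypoxia-responsive genes fell far more often than they rose. Of 31 tested, 6 rose, 22 fell and 3 did not pass, where 33.9% of all genes fell. By at least 2-fold 16 fell, where 15.3% of all genes did. The median log2 fold change was -1.24. Genes that fell spanned glucose entry, glycolysis and lactate release. Slc2a1, the glucose transporter, had 229 and 232 CPM in long 2i, against 949 and 981 CPM in serum (log2 fold change -2.07 ± 0.051, adjusted p = 3.09e-18). Pfkl, a phosphofructokinase, had 58.6 and 67.8 CPM in long 2i, against 442 and 474 CPM in serum (log2 fold change -2.85 ± 0.077, adjusted p = 9.67e-16). Tpi1, the triose isomerase, had 143 and 156 CPM in long 2i, against 471 and 465 CPM in serum (log2 fold change -1.64 ± 0.053, adjusted p = 1.96e-16). Pkm, the pyruvate kinase, had 954 and 1001 CPM in long 2i, against 2886 and 2934 CPM in serum. Ldha, which makes lactate, had 178 and 176 CPM in long 2i, against 1174 and 1175 CPM in serum (log2 fold change -2.73 ± 0.049, adjusted p = 6.82e-20). Slc16a3, which exports lactate, had 3.31 and 3.06 CPM in long 2i, against 132 and 138 CPM in serum (log2 fold change -5.41 ± 0.10, adjusted p = 1.12e-19). Each of these genes was lower in both long 2i libraries than in either serum library, although levels did not overlap in 82.9% of all genes tested.

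Genes that respond to low oxygen without being glycolytic enzymes fell as well. Egln3, an oxygen sensor that marks HIF proteins for breakdown, had 1.12 and 1.43 CPM in long 2i, against 60.2 and 61.4 CPM in serum (log2 fold change -5.56 ± 0.13, adjusted p = 1.33e-18). Bnip3, of mitochondrial autophagy, had 1.06 and 0.950 CPM in long 2i, against 21.1 and 17.4 CPM in serum. Vegfa, the vascular growth factor, had 6.68 and 8.45 CPM in long 2i, against 68.5 and 71.2 CPM in serum (log2 fold change -3.20 ± 0.10, adjusted p = 2.47e-16). Pdk1, which keeps pyruvate out of mitochondria, had 75.7 and 72.5 CPM in long 2i, against 472 and 478 CPM in serum (log2 fold change -2.68 ± 0.054, adjusted p = 2.77e-19). Hif1a itself was slightly higher, at 203 and 192 CPM in long 2i, against 176 and 174 CPM in serum. The members that rose (Hk2, Ldhb, Gapdh, Gpi1, Hk1 and Hif1a) did so by at most 1.34-fold, and with chromosome medians subtracted 3 rose and 23 fell. Hk2, Ldhb and Gapdh lie on chromosome 6 and were no longer called then. Gapdh, Pgk1 and Eno1 have processed copies in the genome, and their counts of uniquely placed reads are uncertain.

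Promoters of Egln3, Slc16a3, Ldha and Pkm are shown because these genes of lactate metabolism and oxygen sensing fell and their windows hold GACGTG. This is a form of the hypoxia response element, marked in capitals on either strand (CACGTC on the other). It was found in 11 of the 29 genes of this list that have a promoter in the RefSeq table, or 37.9%, and in 7.15% of all 27025 genes with one. Of those 11 genes 9 fell, and of the 18 without GACGTG 12 fell. Other forms of the element were not searched for or marked, so some of the 18 may hold one. The windows are chr12:54203825-54204124 (minus strand), chr11:120948817-120949116, chr7:46845554-46845853 and chr9:59656977-59657276 (plus strand), GRCm38.p6, again from 250 bases before to 50 after the start. The matches did not overlap the other motifs searched.
Egln3: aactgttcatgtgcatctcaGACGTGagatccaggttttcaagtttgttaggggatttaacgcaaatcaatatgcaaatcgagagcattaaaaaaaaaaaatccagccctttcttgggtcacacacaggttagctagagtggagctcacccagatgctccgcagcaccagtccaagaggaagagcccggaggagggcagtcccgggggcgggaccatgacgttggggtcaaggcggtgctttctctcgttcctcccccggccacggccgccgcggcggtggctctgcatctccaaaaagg
Slc16a3: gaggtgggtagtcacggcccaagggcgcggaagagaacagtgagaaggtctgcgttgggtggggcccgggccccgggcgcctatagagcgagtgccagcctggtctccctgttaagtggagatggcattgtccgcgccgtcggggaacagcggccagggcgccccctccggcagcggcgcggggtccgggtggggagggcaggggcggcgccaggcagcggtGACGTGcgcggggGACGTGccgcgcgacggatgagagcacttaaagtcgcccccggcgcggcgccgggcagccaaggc
Ldha: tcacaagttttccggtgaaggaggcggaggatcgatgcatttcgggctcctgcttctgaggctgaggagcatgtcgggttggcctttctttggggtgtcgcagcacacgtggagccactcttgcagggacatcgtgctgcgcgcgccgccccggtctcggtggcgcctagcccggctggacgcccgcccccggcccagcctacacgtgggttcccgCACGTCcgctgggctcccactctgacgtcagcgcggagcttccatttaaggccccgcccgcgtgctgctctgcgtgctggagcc
Pkm: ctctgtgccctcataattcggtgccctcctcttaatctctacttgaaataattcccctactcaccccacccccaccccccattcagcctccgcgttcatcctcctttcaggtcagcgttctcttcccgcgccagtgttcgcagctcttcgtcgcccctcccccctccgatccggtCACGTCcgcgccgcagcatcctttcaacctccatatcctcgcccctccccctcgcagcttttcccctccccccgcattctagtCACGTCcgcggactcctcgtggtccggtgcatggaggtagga

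Subunits of oxidative phosphorylation changed little: 33 rose, 17 fell and 32 did not pass of 82 tested, with 2 higher and 2 lower by at least 2-fold and a median of 0.13. The subunits that fell by over 2-fold were Ndufa4l2, which hypoxia induces, with 0.236 and 0.264 CPM in long 2i, against 17.8 and 16.6 CPM in serum, and Cox4i2, likewise hypoxia-induced, with 0.177 and 0.0528 CPM in long 2i, against 2.92 and 2.66 CPM in serum. Cox7b2 and Cox6b2, testis forms of cytochrome oxidase subunits, rose, to 3.66 and 4.22 CPM in long 2i, against 0.143 and 0.156 CPM in serum, and to 50.5 and 49.7 CPM in long 2i, against 22.2 and 22.8 CPM in serum. Ndufs1 and Sdhc, on chromosome 1, fell by 0.81 and 0.77 on the log2 scale.

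Cholesterol synthesis genes rose almost as one. Of 24 tested, 23 rose, 1 fell and 0 did not pass, where 35.1% of all genes rose, and 6 rose by at least 2-fold. Their median log2 fold change was 0.84. Msmo1 and Cyp51 remodel the sterol ring. Msmo1 had 276 and 261 CPM in long 2i, against 118 and 111 CPM in serum (log2 fold change 1.23 ± 0.054, adjusted p = 3.67e-14). Cyp51 had 209.7 and 189 CPM in long 2i, against 95.04 and 81.2 CPM in serum. Insig1, the sensor that retains the sterol factor SREBP, had 182 and 185 CPM in long 2i, against 85.6 and 86.1 CPM in serum. Stard4, a sterol carrier, had 69.2 and 67.8 CPM in long 2i, against 25.97 and 26.8 CPM in serum (log2 fold change 1.38 ± 0.071, adjusted p = 4.22e-13). Pmvk was the one to fall, at 131 and 134 CPM in long 2i, against 156 and 151 CPM in serum.

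Fatty acid genes were less uniform, with 10 rising, 6 falling and 4 not passing of 20 tested. The desaturase genes Scd1 and Fads2 rose, Scd1 with 628 and 603 CPM in long 2i, against 219 and 215 CPM in serum and Fads2 with 76.2 and 81.02 CPM in long 2i, against 34.01 and 35.3 CPM in serum. The NADPH source Me1 had 44.4 and 43.97 CPM in long 2i, against 15.2 and 13.5 CPM in serum. Fasn, the fatty acid synthase, had 718 and 791 CPM in long 2i, against 510.0 and 582 CPM in serum. Of the genes of mitochondrial oxidation, Acadl fell to 20.2 and 17.6 CPM in long 2i, against 47.2 and 45.7 CPM in serum and Cpt2 to 15.1 and 12.8 CPM in long 2i, against 25.6 and 26.7 CPM in serum, while Cpt1a did not pass (138 and 146 CPM in long 2i, against 145 and 149 CPM in serum, adjusted p = 0.377).

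**Figure D3:**
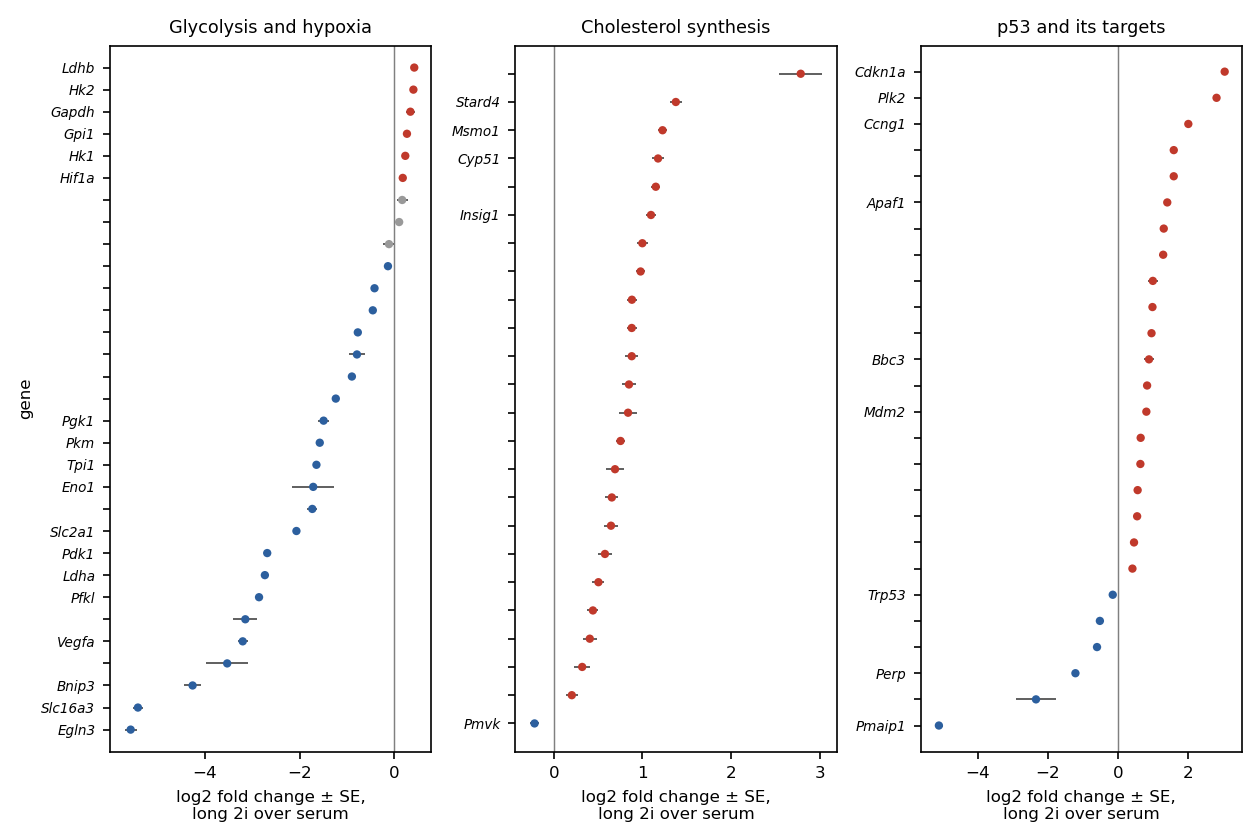
log2 fold change, long 2i over serum, with its SE (x axis) for every tested gene (rows) of 3 lists, red where the gene rose, blue where it fell and grey where it did not pass, with names beside the genes described in the text. Cholesterol synthesis lies to the right of 0 except for Pmvk, glycolysis and hypoxia genes lie mostly to the left, from Egln3 and Slc16a3 upwards, and p53 genes lie mostly to the right, with Pmaip1 far to the left.

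Serine synthesis and stress-response genes moved in both directions. Phgdh, the first enzyme of serine synthesis, had 12.3 and 13.1 CPM in long 2i, against 94.3 and 99.6 CPM in serum (log2 fold change -2.93 ± 0.087, adjusted p = 5.25e-17), and 60.3 and 65.7 CPM in first 2i (long 2i minus first 2i, log2 fold change -2.31 ± 0.089, adjusted p = 1.87e-14). Psat1, the next enzyme, had 297 and 288 CPM in long 2i, against 452 and 441 CPM in serum. Asns, which makes asparagine, rose, with 826 and 821 CPM in long 2i, against 402 and 378 CPM in serum, whereas Chac1, which breaks down glutathione, fell to 5.20 and 4.75 CPM in long 2i, against 19.6 and 19.6 CPM in serum. Over the list, 6 rose, 12 fell and 5 did not pass of 23 tested. By at least 2-fold 1 was higher and 4 lower, against 0 and 3 once chromosome medians were subtracted. The rise of Asns was then under 2-fold. Among amino acid transporters 7 rose, 10 fell and 4 did not pass of 21, with Slc7a7, of cationic amino acids, at 9.99 and 9.03 CPM in long 2i, against 120.4 and 122 CPM in serum and the glutamate transporter Slc1a3 at 1.24 and 0.422 CPM in long 2i, against 26.3 and 27.2 CPM in serum.

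Antioxidant genes rose more often than they fell. Of 28 tested, 20 rose, 5 fell and 3 did not pass, where 35.1% of all genes rose and 33.9% fell. By at least 2-fold 8 were higher and 2 lower, and the median was 0.43. Nqo1, a quinone reductase controlled by Nrf2 and by the aryl hydrocarbon receptor, had 262 and 271 CPM in long 2i, against 38.6 and 33.3 CPM in serum (log2 fold change 2.89 ± 0.067, adjusted p = 1.26e-18). Gsto1, a glutathione transferase, had 343 and 341 CPM in long 2i, against 35.9 and 34.9 CPM in serum (log2 fold change 3.27 ± 0.062, adjusted p = 1.12e-19). Gpx2, a glutathione peroxidase, had 33.9 and 36.2 CPM in long 2i, against 0.239 and 0.104 CPM in serum (log2 fold change 7.60 ± 0.22, adjusted p = 3.40e-17), and 5.38 and 5.02 CPM in first 2i (long 2i minus first 2i, log2 fold change 2.75 ± 0.12, adjusted p = 1.50e-13). Gclm, a standard Nrf2 target, rose little, to 80.3 and 80.97 CPM in long 2i, against 65.9 and 71.6 CPM in serum. Gstm5 fell, to 1.48 and 1.48 CPM in long 2i, against 14.1 and 11.9 CPM in serum.

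The aryl hydrocarbon receptor, a sensor of aromatic compounds, had a higher level itself: Ahr had 11.5 and 15.8 CPM in long 2i, against 1.53 and 1.72 CPM in serum (log2 fold change 3.07 ± 0.20, adjusted p = 1.65e-11). Its repressor and target Ahrr had 15.96 and 14.2 CPM in long 2i, against 0.143 and 0.365 CPM in serum (log2 fold change 5.88 ± 0.30, adjusted p = 4.49e-13). Cyp1a1 and Ahrr were both higher than after 5 to 6 passages, as Cyp1a1 had 7.16 and 6.23 CPM in first 2i (long 2i minus first 2i, log2 fold change 2.90 ± 0.13, adjusted p = 6.89e-13). Ahrr had 4.91 and 3.65 CPM in first 2i (long 2i minus first 2i, log2 fold change 1.81 ± 0.18, adjusted p = 3.48e-08). Tiparp, another target, fell, with 51.1 and 44.4 CPM in long 2i, against 139 and 130.5 CPM in serum (log2 fold change -1.50 ± 0.07, adjusted p = 8.81e-14). Of 10 tested genes 5 rose, 4 fell and 1 did not pass, so the list moved in both directions. The Ahrr promoter (chr13:74292282-74292581, minus strand, GRCm38.p6) is shown because it held, in capitals, the only match among 7 genes of the list to the xenobiotic response element TNGCGTG (either strand). Of all genes with a promoter, 5.84% held a match.
Ahrr: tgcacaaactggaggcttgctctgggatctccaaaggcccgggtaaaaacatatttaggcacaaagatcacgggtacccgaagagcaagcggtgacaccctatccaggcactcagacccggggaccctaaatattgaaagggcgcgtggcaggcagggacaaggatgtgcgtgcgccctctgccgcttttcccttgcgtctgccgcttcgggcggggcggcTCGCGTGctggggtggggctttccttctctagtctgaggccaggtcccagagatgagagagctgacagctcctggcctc

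Lysosome and autophagy genes leaned upwards, with 18 rising, 9 falling and 2 not passing of 29 tested and a median of 0.55. Of all genes 35.1% rose and 33.9% fell. Lamp1, a lysosomal membrane protein, had 1158 and 1128 CPM in long 2i, against 519 and 510.4 CPM in serum (log2 fold change 1.15 ± 0.044, adjusted p = 3.30e-15). Ctsa, which encodes a protective protein and carboxypeptidase, had 197 and 211 CPM in long 2i, against 82.6 and 84.00 CPM in serum. Hexa, a lysosomal hydrolase gene, had 210.2 and 207 CPM in long 2i, against 92.4 and 95.2 CPM in serum. Ulk1, the kinase that starts autophagy, had 456 and 505 CPM in long 2i, against 196 and 228 CPM in serum (log2 fold change 1.18 ± 0.064, adjusted p = 3.06e-12). Of the factors that drive such genes, Tfe3 rose, at 151 and 160.1 CPM in long 2i, against 99.3 and 101 CPM in serum, on the X chromosome, Mitf rose, at 58.2 and 57.3 CPM in long 2i, against 18.2 and 17.9 CPM in serum, on chromosome 6, and Tfeb fell, to 64.4 and 74.4 CPM in long 2i, against 95.2 and 98.6 CPM in serum. Gpnmb, also on chromosome 6, had 15.01 and 17.2 CPM in long 2i, against 0.670 and 0.677 CPM in serum.

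Targets of p53 were mostly higher, while p53 was not. Of 26 tested genes 20 rose, 6 fell and 0 did not pass, where 35.1% of all genes rose, and 8 rose by at least 2-fold. Trp53 had 310.3 and 339.8 CPM in long 2i, against 352 and 368 CPM in serum (log2 fold change -0.15 ± 0.053, adjusted p = 0.0194), a call lost without long 2i replicate 1 (adjusted p = 0.216) or without serum replicate 2 (adjusted p = 0.136). Cdkn1a, which encodes the inhibitor p21, had 149 and 162 CPM in long 2i, against 19.3 and 18.1 CPM in serum (log2 fold change 3.05 ± 0.077, adjusted p = 5.20e-18). Ccng1, a cyclin gene that p53 induces, had 492 and 449.9 CPM in long 2i, against 119 and 114 CPM in serum. Plk2, a polo-like kinase gene, had 100.4 and 101 CPM in long 2i, against 12.3 and 16.2 CPM in serum. Mdm2, which degrades p53, had 185 and 179.7 CPM in long 2i, against 103 and 105 CPM in serum (log2 fold change 0.81 ± 0.058, adjusted p = 8.54e-11). Apaf1, of the apoptosome, had 101 and 103 CPM in long 2i, against 36.97 and 39.5 CPM in serum. Pmaip1, the BH3-only protein Noxa, went the other way, with 2.96 and 3.75 CPM in long 2i, against 122 and 112 CPM in serum (log2 fold change -5.12 ± 0.11, adjusted p = 2.77e-19), whereas the related gene Bbc3 rose by less than 2-fold (log2 fold change 0.89). Perp, an adhesion protein and p53 target, fell to 11.5 and 10.6 CPM in long 2i, against 24.2 and 26.99 CPM in serum.

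CDK inhibitors of the Ink4 locus were also higher. Cdkn2a, which encodes p16 and p19Arf from overlapping frames, had 35.6 and 37.5 CPM in long 2i, against 0.526 and 0.625 CPM in serum (log2 fold change 5.98 ± 0.17, adjusted p = 3.14e-17). Its neighbour Cdkn2b had 5.38 and 6.18 CPM in long 2i, against 0.191 and 0.156 CPM in serum (log2 fold change 5.00 ± 0.34, adjusted p = 3.37e-11). Cdkn1b, which encodes p27, had 85.6 and 89.6 CPM in long 2i, against 77.1 and 76.5 CPM in serum, but lies on chromosome 6 and fell slightly (by 0.15 on the log2 scale) once its median was subtracted. Mycn rose, at 99.2 and 109 CPM in long 2i, against 38.9 and 42.2 CPM in serum (log2 fold change 1.36 ± 0.068, adjusted p = 2.84e-13), while Myc fell, as given above. The G1 cyclins Ccne1, Ccnd1 and Ccnd3 fell (log2 fold changes -1.42, -0.87 and -0.79). Over cyclins, Myc genes and CDK inhibitors 11 rose, 9 fell and 6 did not pass of 26.

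Genes of DNA replication, the spindle and DNA repair differed by small amounts. For replication 3 rose, 15 fell and 10 did not pass of 28 tested, with 1 at least 2-fold lower, and for the spindle 6 rose, 15 fell and 9 did not pass of 30, 0 by at least 2-fold. For checkpoint and repair genes 10 rose, 16 fell and 10 did not pass of 36, also 0 by at least 2-fold. Mcm6 and Mcm3 encode parts of the replicative helicase, and both lie on chromosome 1. Mcm6 had 448 and 451 CPM in long 2i, against 962 and 949 CPM in serum. Mcm3 had 589.9 and 594 CPM in long 2i, against 1092 and 1084 CPM in serum. Bub1b, of the spindle checkpoint, on chromosome 2, had 263 and 267 CPM in long 2i, against 449.5 and 457 CPM in serum (log2 fold change -0.77 ± 0.045, adjusted p = 3.34e-12). Rad50, of double-strand break repair, had 70.2 and 67.04 CPM in long 2i, against 128 and 126 CPM in serum, and Xrcc5 and Parp1, on chromosome 1, fell by 0.70 and 0.63 on the log2 scale.

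Genes of extraembryonic lineages changed in both directions. Of 17 primitive endoderm genes 5 rose, 6 fell and 6 did not pass, and Sparc, which many cell types express, made up most of their summed level. The adaptor Dab2 had 8.27 and 8.76 CPM in long 2i, against 1.43 and 1.51 CPM in serum. Gata4, a leading factor of that lineage, had 3.96 and 5.38 CPM in long 2i, against 1.15 and 1.41 CPM in serum. Sox7 fell, to 2.25 and 3.38 CPM in long 2i, against 33.96 and 36.7 CPM in serum (log2 fold change -3.63 ± 0.15, adjusted p = 7.89e-15), and Hnf4a fell to 0.768 and 0.211 CPM in long 2i, against 13.01 and 12.6 CPM in serum. Of 18 trophectoderm genes 7 rose, 5 fell and 6 did not pass. Gata3 had 2.36 and 2.43 CPM in long 2i, against 0.0957 and 0.104 CPM in serum. Tfap2a, an AP-2 factor, had 43.3 and 43.9 CPM in long 2i, against 2.53 and 2.50 CPM in serum (log2 fold change 4.11 ± 0.12, adjusted p = 2.62e-17), while Cdx2 read 0.827 and 0.950 CPM in long 2i, against 0.0478 and 0.0521 CPM in serum. Krt18, a simple keratin, fell, to 2.54 and 3.96 CPM in long 2i, against 6.41 and 6.36 CPM in serum.

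Neural genes fell more often than they rose, but the largest rises were in neurofilament genes. Of 22 tested, 7 rose, 11 fell and 4 did not pass, where 35.1% of all genes rose and 33.9% fell. Nefl, the light neurofilament, had 137 and 140.2 CPM in long 2i, against 1.29 and 1.51 CPM in serum (log2 fold change 6.63 ± 0.12, adjusted p = 5.75e-20). Stmn2, a regulator of microtubules in neurons, had 159.6 and 159.8 CPM in long 2i, against 7.22 and 5.68 CPM in serum (log2 fold change 4.62 ± 0.092, adjusted p = 2.77e-19). Gad1, which makes the transmitter GABA, had 11.999 and 9.82 CPM in long 2i, against 0.622 and 0.156 CPM in serum. Nefh, the heavy neurofilament, did not follow the light and medium forms, with 6.56 and 7.71 CPM in long 2i, against 20.8 and 21.9 CPM in serum (log2 fold change -1.58 ± 0.12, adjusted p = 2.77e-10). The neuronal RNA-binding protein Elavl3 fell to 0.946 and 1.53 CPM in long 2i, against 40.9 and 44.2 CPM in serum (log2 fold change -5.08 ± 0.16, adjusted p = 9.25e-17), and Gap43, of growing axons, to 0.414 and 0.211 CPM in long 2i, against 11.3 and 9.90 CPM in serum. Tubb3, the neuronal tubulin, had 31.1 and 36.2 CPM in long 2i, against 47.6 and 47.1 CPM in serum. Nefl and Nefm therefore rose without a general rise of neural genes.

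Endothelial genes were more often lower, with 6 rising, 9 falling and 1 not passing of 16 tested, all 9 falls by at least 2-fold. Of all genes 35.1% rose, 33.9% fell and 15.3% fell by at least 2-fold. Cdh5, the endothelial cadherin, had 0.118 and 0.106 CPM in long 2i, against 5.64 and 6.41 CPM in serum (log2 fold change -5.68 ± 0.49, adjusted p = 3.58e-09). Esam, a junction protein, had 4.85 and 5.49 CPM in long 2i, against 12.1 and 13.5 CPM in serum (log2 fold change -1.31 ± 0.15, adjusted p = 1.87e-07). Kdr and Tek, endothelial receptor kinases, went up, Kdr to 5.56 and 4.54 CPM in long 2i, against 0.430 and 0.365 CPM in serum and Tek to 6.92 and 6.23 CPM in long 2i, against 2.01 and 2.61 CPM in serum. Pecam1, which ES cells also express, had 63.2 and 69.4 CPM in long 2i, against 49.9 and 48.4 CPM in serum. Blood genes, with 4 rising, 3 falling and 1 not passing of 8 tested, included Laptm5, a lysosomal membrane protein gene, with 299 and 305 CPM in long 2i, against 201 and 206 CPM in serum. Ptprc, which all white blood cells carry, had 1 read in long 2i and 0 in serum. Of 12 fibroblast genes, 2 rose, 7 fell and 3 did not pass. Thy1, which serum ES cultures also express, had 0.118 and 0.264 CPM in long 2i, against 14.8 and 12.6 CPM in serum (log2 fold change -6.09 ± 0.28, adjusted p = 6.26e-14). Prrx2, a mesenchymal homeobox gene, had 0.0591 and 0.211 CPM in long 2i, against 17.5 and 23.1 CPM in serum (log2 fold change -7.12 ± 0.34, adjusted p = 1.05e-12).

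Matrix and adhesion genes moved in both directions. Of the basement membrane genes, 8 rose, 10 fell and 7 did not pass of 25 tested. Col4a1 and Col4a2 encode the collagen IV chains and lie side by side. Col4a1 had 3.13 and 3.80 CPM in long 2i, against 118 and 136 CPM in serum. Col4a2 had 2.13 and 2.38 CPM in long 2i, against 41.04 and 46.2 CPM in serum. Lamb1 had 15.8 and 16.4 CPM in long 2i, against 34.2 and 39.97 CPM in serum, whereas Sparc rose, with 459 and 459 CPM in long 2i, against 188 and 174 CPM in serum. Of 25 cadherins, claudins and other adhesion genes 3 rose, 13 fell and 9 did not pass. Cdh1, the epithelial cadherin, had 531 and 544 CPM in long 2i, against 149 and 148 CPM in serum (log2 fold change 1.86 ± 0.048, adjusted p = 6.57e-18). Cldn4, a tight junction claudin, had 127 and 136 CPM in long 2i, against 15.3 and 17.1 CPM in serum (log2 fold change 3.03 ± 0.086, adjusted p = 3.65e-17). Epcam, another epithelial adhesion protein, fell, with 43.1 and 39.6 CPM in long 2i, against 107 and 106 CPM in serum (log2 fold change -1.37 ± 0.068, adjusted p = 2.27e-13), as did the integrins Itga5 and Itga6 (log2 fold changes -1.26 and -1.26).

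Targets of SRF and YAP, which report cytoskeletal tension, rose in part, with 11 rising, 5 falling and 3 not passing of 19 tested. Cyr61 and Ctgf encode secreted matrix factors. Cyr61 had 41.4 and 40.9 CPM in long 2i, against 9.09 and 10.4 CPM in serum. Ctgf had 61.6 and 65.9 CPM in long 2i, against 29.2 and 31.5 CPM in serum. Amotl2, which encodes an inhibitor of YAP, had 230.0 and 240.4 CPM in long 2i, against 84.3 and 91.6 CPM in serum. Tpm2, a tropomyosin, and Tagln2 fell, Tpm2 to 1.00 and 0.686 CPM in long 2i, against 22.05 and 19.4 CPM in serum and Tagln2 to 239.9 and 230.0 CPM in long 2i, against 571 and 577 CPM in serum. In the Notch pathway 4 rose, 7 fell and 6 did not pass of 17. The ligand gene Jag1 had 19.03 and 19.6 CPM in long 2i, against 4.07 and 4.38 CPM in serum (log2 fold change 2.20 ± 0.13, adjusted p = 3.32e-12). The receptor gene Notch4 had 11.6 and 13.1 CPM in long 2i, against 49.6 and 58.6 CPM in serum. Mfng, a sugar transferase acting on Notch, had 0.236 and 0.0528 CPM in long 2i, against 16.6 and 17.6 CPM in serum. In the retinoic acid pathway 3 rose, 7 fell and 4 did not pass of 14, with the receptor Rarg at 47.3 and 50.1 CPM in long 2i, against 235 and 248 CPM in serum and the enzyme Aldh1a2 at 5.62 and 5.54 CPM in long 2i, against 0.670 and 0.782 CPM in serum.

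Interferon-inducible genes were more often higher than lower, with 11 rising, 4 falling and 4 not passing of 19 tested and 13 of 32 removed by the filter on low counts. Of all genes tested 35.1% rose and 33.9% fell. Aim2, a sensor of cytosolic DNA, had 125 and 109 CPM in long 2i, against 5.21 and 3.91 CPM in serum (log2 fold change 4.67 ± 0.11, adjusted p = 2.65e-18), although the median of its chromosome, 1, was lower. Ddx58, which encodes the RNA sensor RIG-I, had 71.8 and 71.3 CPM in long 2i, against 19.2 and 18.2 CPM in serum (log2 fold change 1.93 ± 0.079, adjusted p = 9.86e-15). Oas2, an antiviral synthetase, fell, with 1.65 and 1.43 CPM in long 2i, against 23.8 and 25.1 CPM in serum (log2 fold change -3.99 ± 0.15, adjusted p = 3.84e-15). In the Zfp900 series of zinc finger genes 17 rose, 7 fell and 7 did not pass of 31, with Zfp951 at 49.2 and 42.7 CPM in long 2i, against 3.49 and 2.76 CPM in serum (log2 fold change 3.87 ± 0.14, adjusted p = 1.32e-15). Similar zinc finger genes share sequence, and their counts are uncertain.

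Among Y-linked genes 5 rose, 0 fell and 1 did not pass of 6 tested, but only those near 0 in serum rose by more than 2-fold. Usp9y, a deubiquitinase, had 10.05 and 10.1 CPM in long 2i, against 0.191 and 0.261 CPM in serum (log2 fold change 5.45 ± 0.35, adjusted p = 1.57e-11). Ddx3y, an RNA helicase, had 129 and 114 CPM in long 2i, against 91.9 and 86.1 CPM in serum. The Y chromosome was therefore represented by well-expressed genes in both groups. Xist, which silences the X chromosome in female cells, was at 1.95 and 1.06 CPM in long 2i, against 3.16 and 4.74 CPM in serum.

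Housekeeping genes, used to check the scaling, had a median log2 fold change of -0.048, with 5 rising, 8 falling and 7 not passing of 20. Tbp did not pass (55.5 and 55.2 CPM in long 2i, against 56.9 and 59.1 CPM in serum, adjusted p = 0.365). Actb was higher, at 1932 and 2178 CPM in long 2i, against 1279.8 and 1329.8 CPM in serum (log2 fold change 0.66 ± 0.063, adjusted p = 3.17e-08), and the elongation factor gene Eef2 lower, at 2939 and 3213 CPM in long 2i, against 4435 and 4687 CPM in serum. The ribosomal RNA precursor Rn45s read 3999 and 3084 CPM in long 2i, against 4708 and 5445 CPM in serum, and its part in the results was not tested.

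**Figure D4:**
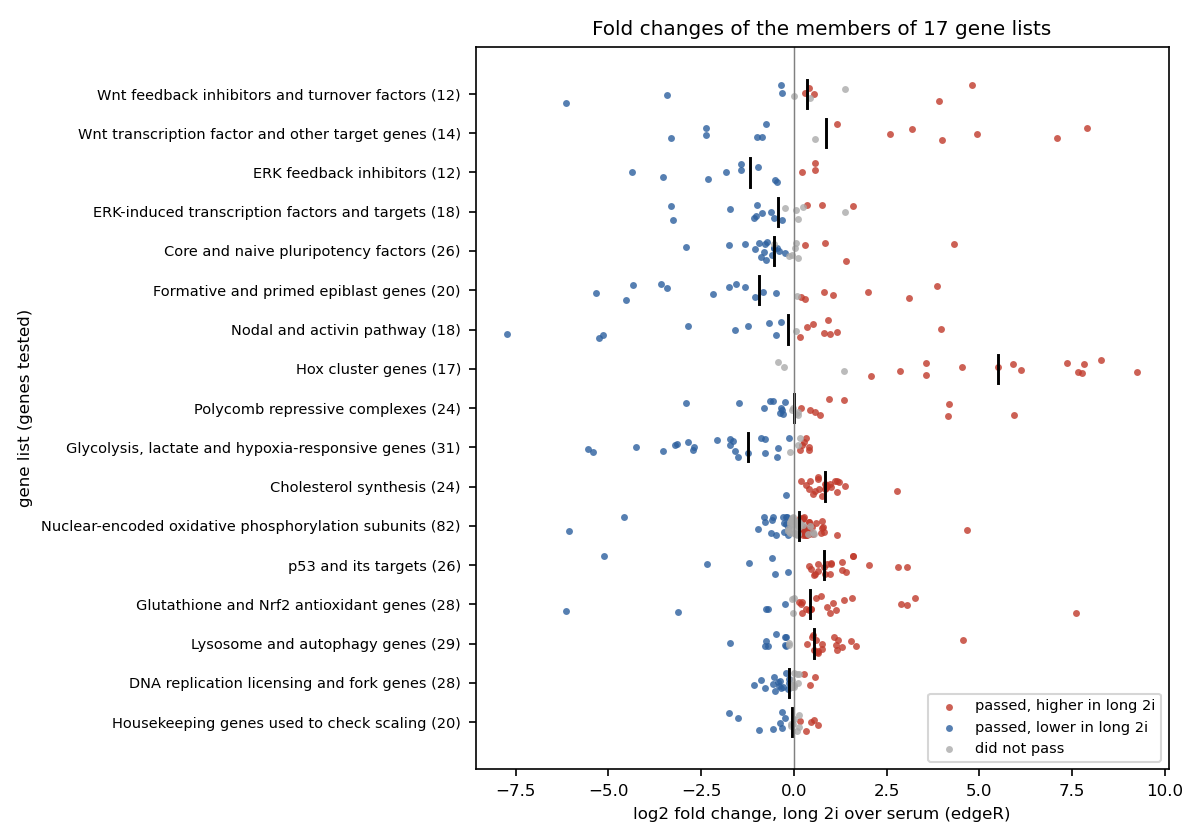
log2 fold change, long 2i over serum (x axis), of the tested members of 17 gene lists (rows, with the number tested), with 1 point per gene, red for genes that rose, blue for genes that fell and grey for genes that did not pass, and a black line at each list's median. Cholesterol synthesis (median 0.84) and p53 genes (0.83) lie to the right, glycolysis (-1.24) and ERK feedback inhibitors (-1.19) to the left, and housekeeping genes (-0.048) near 0.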

How the data were processed

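RNA-seq was read in 10 libraries of mouse ES cells, 2 in each of 5 media groups, from total RNA. The deposited files hold whole-number read counts per gene for 24015 gene symbols, which the authors made with CASAVA 1.8.2, TopHat2 2.0.4 and HTSeq 0.5.4p5 on the mm9 build, per the submitters' processing notes, which also name DESeq2. Whether counting used strand is not given in the sources used here, so overlapping and antisense genes, and multicopy families, are uncertain. The last 5 summary categories of each file (unassigned and multi-mapped reads) were left out. Of all reads tallied, multi-mapped ones made up 35.7% and 35.1% in long 2i, against 34.4% and 33.4% in serum, and reads outside genes 11.8% and 11.6%, against 10.7% and 11.1%.

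Counts were tested with edgeR 4.0.16 (R 4.3.3) by the quasi-likelihood test with TMM factors in 1 fit over all 10 libraries, contrast long 2i minus serum. The filter kept 14220 genes (filterByExpr, minimum count 10, minimum total 15), and p-values were Benjamini-Hochberg adjusted over all of them, with calls under 0.05. A second rule added an absolute log2 fold change of at least 1. Where a group had no counts, the fold is a lower bound against 3 counts over both of its libraries, 0.0837 CPM in long 2i and 0.0748 CPM in serum, which covers counting error only. Named genes were the 10 largest rises and 10 largest falls among called genes that averaged 5 CPM or more where they were higher and kept 1 direction in all 4 pairs of libraries, leaving out clone and model names (such as those ending in Rik) and ribosomal protein and histone genes, and members of 52 gene lists, lead members first and then the largest differences. A few further members, such as all glycolysis genes that rose, were named after their values were seen. Some members that the rule names are not reported here. The lists and members were chosen with earlier results of these data known. Counts of replicate libraries differed by more than sampling noise (chi-square per degree of freedom 4.37 in long 2i and 4.79 in serum). The fit was also run on simulated counts with known changes, but all genes there shared the same spread. That run therefore does not show how the fit handles genes whose replicates lie far apart. Chromosomes came from the RefSeq gene table and promoter sequences from RefSeq, both GRCm38.p6, by symbol. Alternatives were DESeq2 1.42.0, its size factors, no filter, the 4 libraries alone, a block, each library left out, and chromosome medians subtracted.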

Additional observations from a re-analysis of the deposited data

How the results depend on the processing

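The count of called genes, 9804 as reported, was 9793 with DESeq2 size factors (4836 higher and 4957 lower), 10075 without the filter on low counts, 8946 with the DESeq2 test and 9366 with the 4 libraries alone. Leaving out 1 library gave 9012 to 9126 calls, and 3625 to 3678 by at least 2-fold, where 3699 were reported. The lone library left in a group is then assumed to vary like the other groups. By at least 2-fold the other settings gave 3467 to 3928. All of these counts stayed within 1.5 times those reported. Subtracting chromosome medians, an alternative chosen after seeing the data, gave 9629 calls and 3637 by at least 2-fold. It turned the sign of 5 of the 278 named genes, Nanog (log2 fold change -0.042), Etv5 (-0.019), Gapdh (-0.00684), Tcf7l1 (-0.10) and Cdkn1b (-0.15), and the calls of 3 others were lost.

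The replicate numbers come from the title series and are not stated to mark a shared culture or day. Same-numbered libraries deviated together only weakly, with a correlation of 0.128 between long 2i and serum and 0.0994 to 0.168 over all 10 pairs of groups. With the title series as a replicate block, 10557 genes were called, 9787 of them among the 9804, and 3729 by at least 2-fold. The block added calls for Klf2 and Id3. Depth limits genes near 0, where 1 to 3 reads set the lower level.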
